A study of Mus musculus with 12 samples.

Results

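Mfge8 and the genes that act beside it in the removal of dying cells were followed in messenger RNA of mouse duodenum and spleen. The set held 10 genes, picked by symbol from the 23329 rows of the count tables: the bridging proteins Mfge8, Gas6 and Pros1, the receptor kinases Axl, Mertk and Tyro3, the phosphatidylserine receptor Timd4, and the integrin subunits Itgav, Itgb3 and Itgb5. Mfge8 was chosen on its measured values, as the gene whose response differed most surely between the tissues, so its levels are given as a description without a test. The other 9 were taken for their function, with earlier results of these data known. All 10 passed the filter on low counts in both tissues.

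The tissues came from wild type C57BL/6J mice aged 2 months. Duodenum and spleen were each taken from mice treated with AC H6, which activates the lymphotoxin beta receptor (LTbR) as an agonist antibody, or with an isotype control that does not bind it. Treatment lasted 24 hours, at 100 ul of a 1 mg/ml solution per mouse, and each of the 4 groups held 3 libraries. No group carried a mutation or transgene. LTbR belongs to the tumour necrosis factor receptors, is carried by stromal, epithelial and myeloid cells, and shapes lymphoid tissue through the alternative NF-kB pathway. The labels do not say whether the 3 libraries of a group came from 3 mice or whether spleen and duodenum were taken from the same mice. The p-values measure the spread between these libraries.

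A dying cell exposes phosphatidylserine, a lipid otherwise kept on the inner face of its membrane, and phagocytes read it as a signal to engulf the cell. Mfge8 binds this lipid and links it to the integrins alpha v beta 3 and alpha v beta 5, while Gas6 and Pros1 link it to the kinases Tyro3, Axl and Mertk. Timd4 binds the lipid without a bridge. In lymphoid tissue Mfge8 is known as a product of follicular dendritic cells, and in the intestine as a protein of lamina propria cells that helps maintain the epithelium.

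Library totals ran from 13874091 counts in a spleen isotype library to 45847467 counts in a spleen AC H6 library. Enterocyte markers summed to 37025 to 39343 CPM (counts scaled to 1000000 per library) in duodenum AC H6 libraries and 41451 to 42966 CPM in duodenum isotype libraries, against at most 61.2 CPM in any spleen library, which sets the tissues apart as labelled. Some libraries stood apart. The ribosomal precursor Rn45s took 7.56% of the counts in duodenum isotype replicate 1, and pancreatic amylase 2 took 8.64% in duodenum AC H6 replicate 3. Haemoglobin genes took 15.7% to 28.3% in spleen AC H6 libraries and 7.59% to 19.0% in spleen isotype libraries. Levels below are CPM after trimmed mean of M values scaling over all 12 libraries, as mean ± SD of 3 libraries.

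Mfge8 lies on chromosome 7 at 79133768 to 79149060, minus strand (GRCm38, as are the positions below). In duodenum it stood at 711, 665 and 695 CPM in the AC H6 libraries, against 90.7, 90.4 and 84.8 CPM in the isotype libraries. The 3 AC H6 values lay far above the 3 isotype values, and within each group the libraries stayed close together. The means were 691 ± 23.3 CPM under AC H6 and 88.6 ± 3.33 CPM under isotype, a 7.79-fold difference. The fit of the duodenum libraries alone gave a 7.88-fold difference (log2 fold change 2.98 ± 0.06, SE). In spleen it stood at 588, 606 and 617 CPM under AC H6, against 556, 620 and 591 CPM under isotype. There the groups overlapped, with means of 604 ± 14.8 CPM under AC H6 and 589 ± 32.2 CPM under isotype and a log2 fold change of 0.04 ± 0.06. Under AC H6 the 3 duodenum libraries lay above all 3 spleen libraries, whereas under isotype they lay below all of them. The treatment effect in duodenum minus that in spleen was 2.92 ± 0.08 on the log2 scale, the value Mfge8 was selected on. In bulk tissue, more or fewer cells of a type and more or less RNA per cell cannot be told apart, for Mfge8 and for all that follows.

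**Figure D1:**
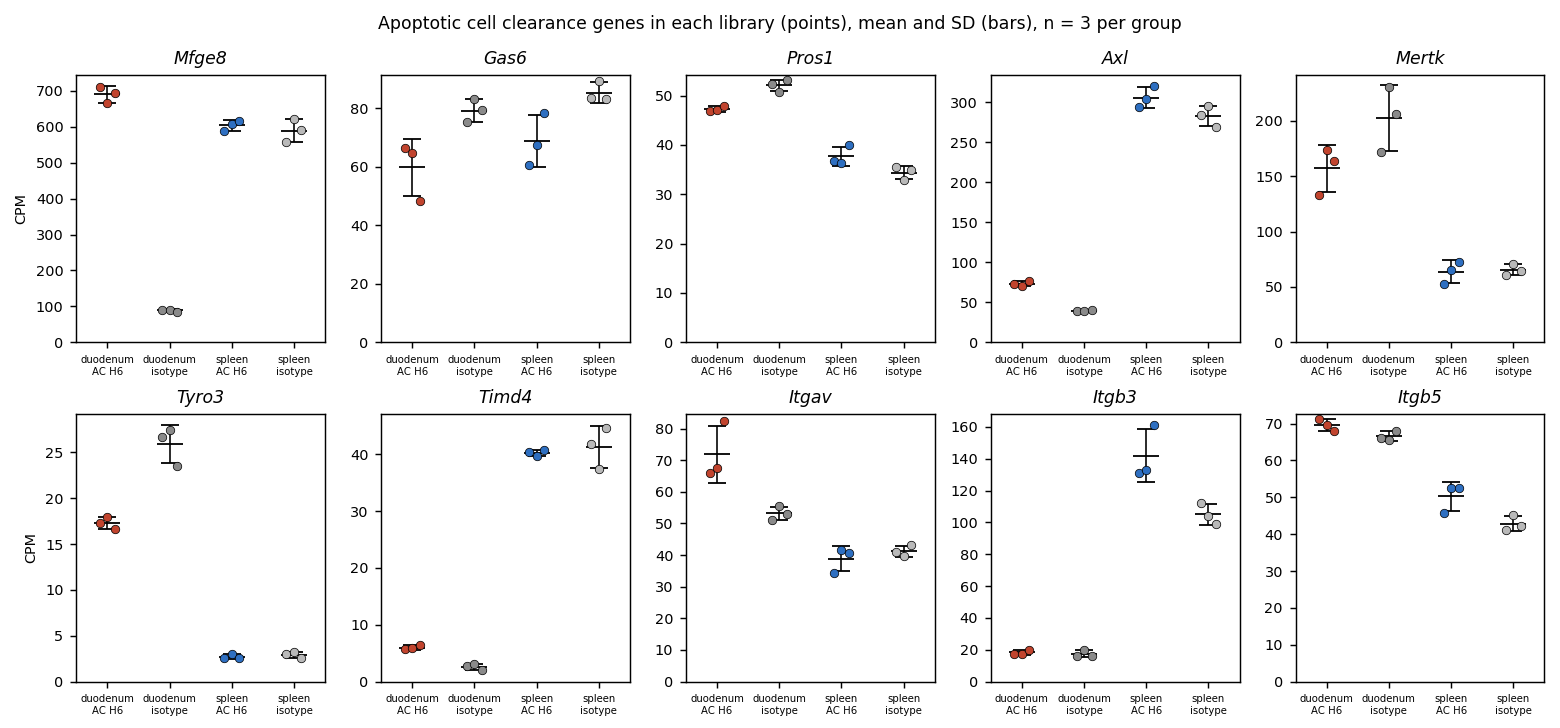
Level in CPM of each of the 10 genes (linear axes from 0) in every library, with mean and SD bars, n = 3 per group. Mfge8 in duodenum lies between 665 and 711 CPM under AC H6 and between 84.8 and 90.7 CPM under isotype, while its 6 spleen libraries share 1 range.

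Because Mfge8, Axl and Timd4 were the 3 genes of the set with the largest positive log2 fold changes in duodenum, the sequence at their transcription starts is shown. Each is a RefSeq sequence on GRCm38.p6 that runs from 250 bases before to 50 bases after the start, read 5′ to 3′ on the gene's own strand. Mfge8 is at chr7:79149011-79149310 on the minus strand, Axl at chr7:25788684-25788983 on the minus strand, and Timd4 at chr11:46810549-46810848 on the plus strand. Capitals mark GC boxes, the letters GGGCGG on either strand.
Mfge8: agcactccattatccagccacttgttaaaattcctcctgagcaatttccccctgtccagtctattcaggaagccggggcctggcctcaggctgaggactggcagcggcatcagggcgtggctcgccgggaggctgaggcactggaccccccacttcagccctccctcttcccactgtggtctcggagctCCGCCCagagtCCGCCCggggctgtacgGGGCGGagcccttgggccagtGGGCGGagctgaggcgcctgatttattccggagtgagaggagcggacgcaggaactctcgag
Axl: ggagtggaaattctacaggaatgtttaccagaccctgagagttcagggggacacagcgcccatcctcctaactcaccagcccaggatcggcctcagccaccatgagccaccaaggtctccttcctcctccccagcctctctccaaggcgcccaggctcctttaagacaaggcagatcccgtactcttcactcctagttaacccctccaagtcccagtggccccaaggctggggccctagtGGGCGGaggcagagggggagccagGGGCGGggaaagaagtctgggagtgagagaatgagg
Timd4: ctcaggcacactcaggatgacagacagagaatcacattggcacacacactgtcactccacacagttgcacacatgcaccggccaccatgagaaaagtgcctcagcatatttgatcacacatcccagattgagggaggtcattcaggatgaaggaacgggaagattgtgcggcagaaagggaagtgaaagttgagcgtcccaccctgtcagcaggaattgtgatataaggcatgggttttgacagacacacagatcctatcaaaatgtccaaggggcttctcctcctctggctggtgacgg
The Mfge8 window held 4 GC boxes, the Axl window 2 and the Timd4 window 0. Of the 9 genes with an entry, 8 had at least 1 GC box, against 35.7% of 32851 promoters of the same length. A kappa B motif of the form GGGNNNTTCC, searched on both strands and able to take in a GC box, was in 0 of the 9 windows and in 5.56% of all promoters. Other forms of the motif were not searched. The share of G and C was 64.3% for Mfge8, 60.3% for Axl and 50.7% for Timd4, beside a median of 52.7% over all promoters. These matches describe the letters in the window only.

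Of the bridging proteins that serve the receptor kinases, Gas6 (chromosome 8, 13465374 to 13494490, minus strand), a ligand of Tyro3, Axl and Mertk, was lower under AC H6 in duodenum. It stood at 66.3, 64.6 and 48.4 CPM in duodenum AC H6 libraries, against 75.2, 83.1 and 79.4 CPM in duodenum isotype libraries. The groups did not overlap, and AC H6 replicate 3, the library rich in amylase, was the lowest. The log2 fold change was -0.39 ± 0.11, past the threshold of 0.05 (adjusted p = 0.0267, quasi-likelihood test of edgeR, Benjamini-Hochberg adjustment over all genes tested). The call was lost without duodenum isotype replicate 2 (adjusted p = 0.060) or without replicate 3 (adjusted p = 0.0641, edgeR). In spleen Gas6 stood at 60.5, 67.4 and 78.4 CPM under AC H6, against 83.6, 89.5 and 83.1 CPM under isotype. These groups did not overlap either, and the log2 fold change of -0.31 ± 0.09 did not pass the test (adjusted p = 0.100, edgeR). Gas6 shares 34 exon bases with Tmem255b on the opposite strand, and the counts do not separate strands.

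Pros1 (chromosome 16, 62854307 to 62929346, plus strand), which encodes protein S, an anticoagulant that also bridges to the receptor kinases, differed little. Its duodenum levels were 46.9, 47.1 and 47.9 CPM under AC H6, against 52.3, 50.8 and 53.1 CPM under isotype. The AC H6 libraries were all below the isotype libraries, at a log2 fold change of -0.12 ± 0.04 that did not pass the test (adjusted p = 0.0649, edgeR). In spleen it stood at 36.8, 36.2 and 39.9 CPM under AC H6, against 35.5, 32.8 and 34.9 CPM under isotype. Here the AC H6 libraries were all above the isotype libraries, at 0.13 ± 0.06 (adjusted p = 0.206, edgeR). The duodenum effect minus the spleen effect was -0.27 ± 0.08 and passed the test of that difference (adjusted p = 0.0273, edgeR). That call was lost when duodenum isotype replicate 1 or 3, duodenum AC H6 replicate 1 or 2, spleen isotype replicate 1 or 2, or spleen AC H6 replicate 3 was left out, with adjusted p up to 0.108 (edgeR).

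Axl (chromosome 7, 25757273 to 25788705, minus strand), a receptor kinase of macrophages and other phagocytes that binds Gas6, rose in duodenum. It stood at 72.4, 70.3 and 76.2 CPM in the AC H6 libraries, against 38.6, 38.6 and 40.1 CPM in the isotype libraries. The groups were far apart beside their spread, with a log2 fold change of 0.92 ± 0.05 (adjusted p = 1.09e-05, edgeR). In spleen it stood at 293, 303 and 320 CPM under AC H6, against 284, 294 and 269 CPM under isotype. The spleen groups overlapped, at 0.11 ± 0.06 (adjusted p = 0.252, edgeR). The effects differed between the tissues by 0.78 ± 0.08 (adjusted p = 5.97e-05, edgeR). Even under AC H6 the duodenum mean of 73.0 ± 3.01 CPM stayed below the spleen mean of 306 ± 13.6 CPM.

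Mertk (chromosome 2, 128698956 to 128802894, plus strand), the receptor kinase through which resting tissue macrophages and the retinal pigment epithelium engulf, varied widely within groups. Its duodenum levels were 133, 174 and 164 CPM under AC H6, against 172, 231 and 207 CPM under isotype. The groups overlapped, and the log2 fold change of -0.35 ± 0.13 did not pass the test (adjusted p = 0.0651, edgeR). With DESeq2, with the replicate number as a block, with an acinar score in the model, without isotype replicate 1, and without both isotype replicate 1 and AC H6 replicate 3, it was called lower. Spleen levels were 52.3, 65.6 and 72.7 CPM under AC H6, against 61.0, 71.0 and 64.4 CPM under isotype, with overlap and a log2 fold change of -0.04 ± 0.12 (adjusted p = 0.834, edgeR).

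Tyro3 (chromosome 2, 119797733 to 119818104, plus strand), the third kinase of the family, fell in duodenum. It stood at 17.3, 17.98 and 16.7 CPM in AC H6 libraries, against 26.7, 27.4 and 23.6 CPM in isotype libraries. No AC H6 library reached the lowest isotype library, and the log2 fold change was -0.56 ± 0.07 (adjusted p = 0.000875, edgeR). Spleen held little Tyro3, at 2.60, 3.01 and 2.58 CPM under AC H6, against 3.00, 3.21 and 2.56 CPM under isotype. The spleen groups overlapped, at -0.09 ± 0.14 (adjusted p = 0.704, edgeR), and the difference between the tissues was -0.49 ± 0.14 (adjusted p = 0.0330, edgeR). This call held without duodenum isotype replicate 3, duodenum AC H6 replicate 2, spleen isotype replicate 2 or spleen AC H6 replicate 1, and was lost without any of the other 8 libraries, with adjusted p up to 0.115 (edgeR).

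Timd4 (chromosome 11, 46810800 to 46844332, plus strand), also called TIM-4, a receptor of resident macrophages that tethers phosphatidylserine directly, rose in duodenum, where its level was low. It stood at 5.73, 5.82 and 6.43 CPM in AC H6 libraries, against 2.69, 3.09 and 2.08 CPM in isotype libraries. The groups did not overlap, and the log2 fold change was 1.21 ± 0.15 (adjusted p = 0.000794, edgeR). In spleen it stood at 40.4, 39.6 and 40.7 CPM under AC H6, against 41.8, 37.3 and 44.7 CPM under isotype. The spleen AC H6 values lay inside the isotype range, at -0.03 ± 0.07 (adjusted p = 0.795, edgeR). The effects differed between the tissues by 1.22 ± 0.15 (adjusted p = 2.70e-04, edgeR).

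Among the integrin subunits, Itgav (chromosome 2, 83724397 to 83806916, plus strand) encodes alpha v, the chain shared by both Mfge8 receptors. Its duodenum levels were 66.0, 67.5 and 82.3 CPM under AC H6, against 51.3, 55.4 and 52.9 CPM under isotype. All AC H6 libraries lay above the isotype libraries, with AC H6 replicate 3 the highest, and Itgav rose by a log2 fold change of 0.45 ± 0.08 (adjusted p = 0.00436, edgeR). In spleen it stood at 34.3, 41.8 and 40.6 CPM under AC H6, against 40.9, 39.7 and 43.1 CPM under isotype. Those groups overlapped, at -0.08 ± 0.08 (adjusted p = 0.527, edgeR), and the effects differed between the tissues by 0.52 ± 0.13 (adjusted p = 0.0161, edgeR). Itgav shares 634 of its 10744 exon bases with Gm13684 on the opposite strand, and reads within the shared bases cannot be told apart.

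Itgb3 (chromosome 11, 104608000 to 104670476, plus strand) encodes beta 3, which pairs with alpha v and, in platelets, with alpha IIb. In spleen it stood at 131, 133 and 161 CPM in AC H6 libraries, against 112, 104 and 98.9 CPM in isotype libraries. The groups did not overlap, and Itgb3 rose by a log2 fold change of 0.43 ± 0.09 that lay just past the threshold (adjusted p = 0.0494, edgeR). The call was lost in 5 of the 6 fits that left out 1 library, all but the one without AC H6 replicate 2, with adjusted p up to 0.144 (edgeR). Platelet markers moved with it: their summed level was 381 to 549 CPM in spleen AC H6 libraries and 244 to 319 CPM in spleen isotype libraries. Of these markers 3 of 8 were called higher, against 2.06% of all spleen genes. None of them was at 0 in any group, Itga2b, the gene of alpha IIb, had a log2 fold change of 0.65 in spleen, and the part of platelets in the Itgb3 value was not tested. In duodenum Itgb3 stood at 17.6, 17.5 and 20.1 CPM under AC H6, against 16.4, 20.1 and 16.3 CPM under isotype, with overlap and a log2 fold change of 0.08 ± 0.10 (adjusted p = 0.537, edgeR).

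Itgb5 (chromosome 16, 33829665 to 33949338, plus strand) encodes beta 5, the other partner of alpha v in Mfge8 binding. It stood in duodenum at 71.1, 69.6 and 68.1 CPM under AC H6, against 66.1, 65.6 and 68.1 CPM under isotype. The ranges just overlapped, at a log2 fold change of 0.08 ± 0.05 (adjusted p = 0.231, edgeR). Spleen levels were 45.8, 52.4 and 52.6 CPM under AC H6, against 41.1, 45.1 and 42.1 CPM under isotype. The AC H6 libraries were all above the isotype libraries, at 0.23 ± 0.07, which did not pass the test (adjusted p = 0.100, edgeR).

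In duodenum, then, 3 of the 9 genes other than Mfge8 were called higher (Axl, Timd4 and Itgav) and 2 lower (Gas6 and Tyro3). Of all 15667 genes tested there, 18.5% were called higher and 16.1% lower. Over the whole set the median log2 fold change was 0.08, beside 0.01 over all genes. In spleen 1 of the 9, Itgb3, was called higher and 0 lower, against 2.06% called higher and 1.92% called lower of 15270 genes, and the median of the 9 was -0.033 on the log2 scale, beside -0.00090 over all spleen genes. Gas6 was the only one of the 9 below 0 in spleen with an unadjusted p under 0.05, and it was called lower there by DESeq2 and not by limma-voom. The difference between the tissues was called positive for 3 of the 9 and negative for 2, against 10.9% and 9.13% of 16655 genes. The fits in duodenum and in the difference share their libraries, so these counts are not separate evidence.

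**Figure D2:**
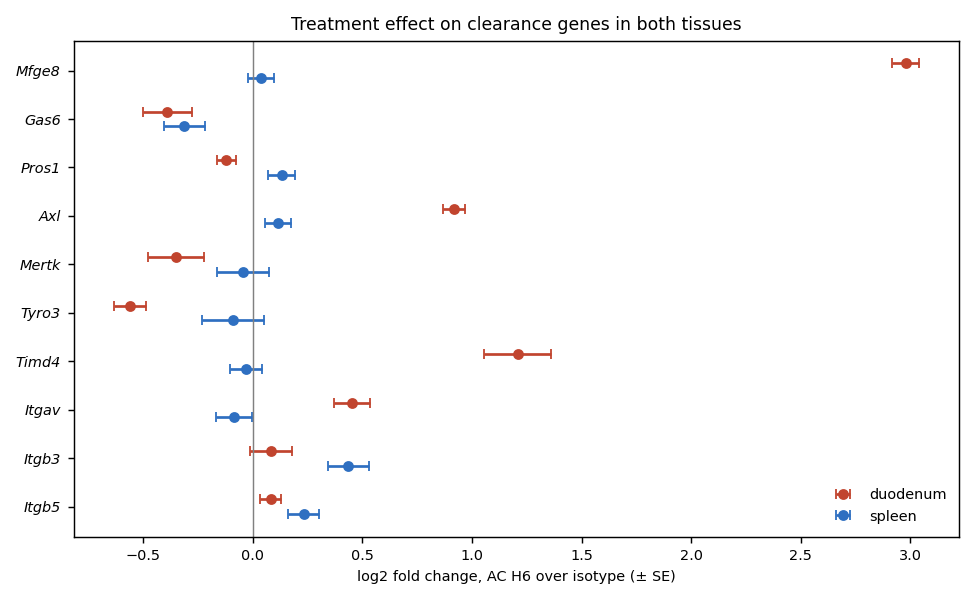
Log2 fold change of AC H6 over isotype with its standard error for the 10 genes, duodenum above spleen in each row. Mfge8 lies at 2.98 in duodenum and 0.04 in spleen, and Gas6 lies below 0 in both tissues.

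The tissues already differed under isotype: all 9 genes other than Mfge8, which was not tested, were called by edgeR over the 6 isotype libraries. Mfge8 itself averaged 88.6 CPM in duodenum and 589 CPM in spleen, a description only, since these libraries also entered the value it was chosen on. Axl, Timd4 and Itgb3 were lower in duodenum, at log2 differences of duodenum over spleen of -2.88 ± 0.05, -3.99 ± 0.15 and -2.60 ± 0.09. Tyro3 was higher there by 3.12 ± 0.11 and Mertk by 1.61 ± 0.11. Itgb5, Pros1 and Itgav were higher by 0.61 ± 0.06, 0.57 ± 0.06 and 0.34 ± 0.06. The largest adjusted p among these 8 was 0.000581 (edgeR). The libraries of the tissues did not overlap for these 8. This is not read as a result, since the share of all genes without such overlap was not counted. Gas6 had overlapping libraries, -0.13 ± 0.05 and an adjusted p of 0.0486 (edgeR), and lost its call in 8 of 14 alternatives. It was lost without any 1 duodenum isotype library or without spleen isotype replicate 2 or 3 (adjusted p up to 0.184, edgeR), with other size factors (0.268, edgeR), in 1 fit of all 12 libraries (0.400, edgeR) and with DESeq2 (adjusted p = 0.424). These counts of 5 higher and 4 lower of the 9 stand against 42.2% and 43.8% of 16029 genes, so a difference between the tissues was the rule among genes.

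Levels can be ranked between genes only per length of exon. In duodenum under AC H6 Mfge8 led at 147 ± 4.96 CPM per kb, followed by Mertk at 36.2 ± 4.90 and Gas6 at 23.5 ± 3.87. Under isotype Mertk led at 46.8 ± 6.89 CPM per kb, before Gas6 at 31.1 and Mfge8 at 18.9 ± 0.71, whose libraries overlapped with those of Itgb5 at 18.7. Axl and Pros1 changed places between the duodenum groups: 14.5 and 11.6 CPM per kb under AC H6, against 7.77 and 12.7 under isotype. Itgav, Itgb3, Tyro3 and Timd4 filled the lowest places in both, at 6.69, 3.12, 2.80 and 2.76 CPM per kb under AC H6 and 4.95, 2.98, 4.18 and 1.21 under isotype. Under AC H6 the libraries of Tyro3 overlapped with those of Timd4, and those of Gas6 with those of Itgb5 (19.6 CPM per kb).

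In spleen the order opened with Mfge8, Axl and Gas6 in both groups, at 129, 60.7 and 27.0 CPM per kb under AC H6 and 126, 56.2 and 33.5 CPM per kb under isotype. Itgb3, Timd4, Mertk and Itgb5 came next, at 24.0, 18.5, 14.7 and 14.1 CPM per kb under AC H6 and 17.8, 19.0, 15.1 and 12.05 under isotype. Among these neighbours Gas6 and Itgb3 overlapped under AC H6, as did Mertk and Itgb5, and Timd4 and Itgb3 overlapped under isotype. Pros1, Itgav and Tyro3 were last, at 9.21, 3.62 and 0.441 CPM per kb under AC H6 and 8.41, 3.84 and 0.471 under isotype. With the longest transcript as length, Mfge8 under isotype ranked above Gas6 in duodenum, at 38.0 against 31.1 CPM per kb, and remained first in the other 3 groups. Under AC H6 that length also put Tyro3 above Itgb3 in duodenum, at 3.89 against 3.18 CPM per kb. In spleen under AC H6 it put Itgb5 above Mertk, at 15.3 against 14.8 CPM per kb.

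**Figure D3:**
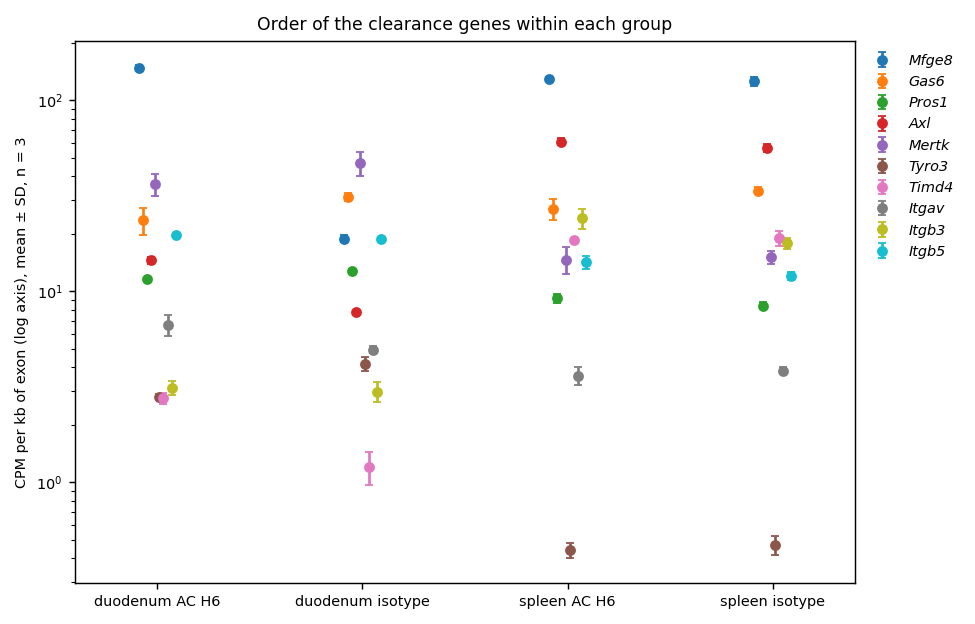
Mean level per kb of exon (log axis) with SD for the 10 genes in each group, n = 3. Mfge8 lies at 147 CPM per kb in duodenum AC H6 and 18.9 in duodenum isotype, and at 129 and 126 in spleen AC H6 and spleen isotype.

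Marker genes of several cell types moved in duodenum beside these genes. Of all duodenum genes tested, 18.5% were called higher and 16.1% lower. The marker counts here and in the next paragraph are to be read beside these shares. Of 11 macrophage markers 10 rose, Ms4a7 being the exception, and they summed to 511 to 597 CPM under AC H6 and 325 to 334 CPM under isotype. Axl, Timd4 and Mertk are known macrophage genes. Mertk went the other way in duodenum, at -0.35 ± 0.13 on the log2 scale, and was not called. Of 6 red pulp macrophage markers tested in duodenum 3 rose and 1 fell. The 8 of that list summed to 1614 to 1844 CPM under AC H6 and 2297 to 2759 CPM under isotype. In spleen the macrophage markers summed to 2372 to 2530 CPM under AC H6 and 2096 to 2177 CPM under isotype. The part of macrophages in the Axl, Timd4 and Mertk values was not tested. With a macrophage score in the model edgeR called 1 gene of all and 0 of the 9 members other than Mfge8. The score did not overlap between AC H6 and isotype libraries, so the 2 terms cannot be told apart there.

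All 10 markers of M cells and follicle epithelium rose, with sums of 563 to 694 CPM under AC H6 and 156 to 192 CPM under isotype. Gp2 was the least certain of the 10, at a log2 fold change of 1.80 ± 0.54 (adjusted p = 0.0330, edgeR). The part of the pancreatic signal, uneven between duodenum libraries, in the Gp2 value was not tested. In spleen this list summed to 585 to 608 CPM under AC H6 and 591 to 623 CPM under isotype, so its level is not particular to duodenum. Under isotype 6 of the 10 were called lower in duodenum than in spleen and 4 higher. Of 11 genes of follicular dendritic cells and the B cell follicle 6 rose, led by the chemokine Cxcl13 at a log2 fold change of 4.03 and the adhesion molecule Madcam1 at 2.12. Their sums were 733 to 960 CPM under AC H6 and 496 to 642 CPM under isotype, while the follicular receptors Cr2 and Fcer2a did not pass the test. In spleen their sums were 2013 to 2325 CPM under AC H6 and 2304 to 2515 CPM under isotype, at a median log2 fold change of -0.19. Fibroblast markers rose in 6 of 9 cases, at sums of 1246 to 1377 CPM under AC H6 and 910 to 1042 CPM under isotype. Enterocyte markers fell in 6 of 13 cases and rose in 2. No marker of these 6 lists was at 0 in either duodenum group, and the part of any of these cell types in the Mfge8 value was not tested.

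The wider clearance pathway was described through 7 lists with 126 genes beside the 10. In duodenum 40 of the 120 tested were called higher and 15 lower, which is 33.3% and 12.5%. Over all duodenum genes 18.5% were called higher and 16.1% lower, with a median of 0.01, and the counts and medians of the lists below are to be read beside these. The largest rise among receptors and bridges was that of Bai1, an adhesion receptor for phosphatidylserine now named Adgrb1, at 5.10 ± 0.66 CPM under AC H6 and 0.937 ± 0.031 CPM under isotype (log2 2.46 ± 0.17). The complement bridges C1qa, C1qb and C1qc rose by 0.91 ± 0.06, 1.00 ± 0.07 and 1.06 ± 0.05 on the log2 scale. In this list 10 of 29 rose and 3 fell, with a median of 0.26. Of 8 further integrin subunits 5 rose and 1 fell: Itgax, Itgb2 and Itgam of the leukocyte integrins rose by 0.95 ± 0.06, 0.82 ± 0.06 and 0.48 ± 0.09, and Itga8 fell by 0.63 on the log2 scale. Of 8 neutrophil markers tested in duodenum 5 rose, and the 12 of the list summed to 95.3 to 113 CPM under AC H6 and 51.7 to 57.1 CPM under isotype. No neutrophil marker was at 0, and their part in the integrin values was not tested.

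Genes of the signals that hold engulfment back rose in 6 of 7 cases with a median of 0.68. Sirpa, the receptor for Cd47, stood at 42.1 ± 2.97 CPM under AC H6 and 20.4 ± 1.42 CPM under isotype, and Cd24a, the ligand of Siglecg, at 467 ± 25.6 CPM under AC H6 and 296 ± 25.7 CPM under isotype. Downstream of the receptors 6 of 20 engulfment genes rose and 2 fell (median 0.06), among them Rac2 at 1.06 ± 0.04, the kinase Syk at 0.78 ± 0.06 and the cholesterol exporter Abcg1 at 1.17 ± 0.13. In the phagosome list 7 of 24 rose and 3 fell (median 0.03), with the NADPH oxidase subunits Cyba at 1.60 ± 0.10 and Cybb at 0.69 ± 0.10. The find-me list had 4 rises and 1 fall of 14 (median 0.08), including the fractalkine receptor Cx3cr1, also a macrophage marker, at 0.92 ± 0.10, the flippase Atp11a at 0.66 ± 0.07 and the channel Panx1 at 0.42 ± 0.05. The list of regulators had 2 rises and 5 falls of 18 (median -0.05): Socs1 rose by 1.34 ± 0.16, while Pparg fell by 0.62 and Klf4 by 0.37 on the log2 scale.

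In spleen 13 of 118 tested genes of these lists were called higher and 3 lower, against 2.06% and 1.92% over all spleen genes. Other receptors and bridges held 10 of the rises among 28 (median 0.19), including the chaperone Calr at 0.43 ± 0.05, Lgals3 at 0.45 ± 0.06, Anxa1 at 0.82 ± 0.11 and the receptor Cd300lb at 0.69 ± 0.08. All 12 neutrophil markers rose in spleen as well, with sums of 1690 to 2428 CPM under AC H6 and 552 to 857 CPM under isotype. Of 5 marginal zone macrophage markers 4 rose there (Marco, Cd209b, Msr1 and Nr1h3), at sums of 278 to 354 CPM under AC H6 and 183 to 185 CPM under isotype. None of these markers was at 0, and their part in the rises was not tested. The remaining rises were those of Itgam at 0.85 ± 0.07, the liver X receptor gene Nr1h3, itself in the marginal zone list, at 0.46 ± 0.06 and the lysosomal protease Ctsb at 0.40 ± 0.08. Itga8, S1pr1 and Siglecg had log2 fold changes of -0.62, -0.27 and -0.44 and fell. Lymphocyte markers fell in spleen too: 5 of 10 of T cells (sums 550 to 616 CPM under AC H6 and 696 to 792 CPM under isotype) and 2 of 9 of B cells (sums 2550 to 2958 CPM under AC H6 and 3202 to 3456 CPM under isotype). None was at 0, and their part in these falls was not tested. Of 20 engulfment genes 3 had an unadjusted p under 0.05 in edgeR and 0 were called; DESeq2 gave 1 call there and limma-voom 0. The 10 calls among receptors and bridges became 0, 3 and 2 without spleen isotype replicate 1, 2 or 3, and 2, 11 and 0 without AC H6 replicate 1, 2 or 3.

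**Figure D4:**
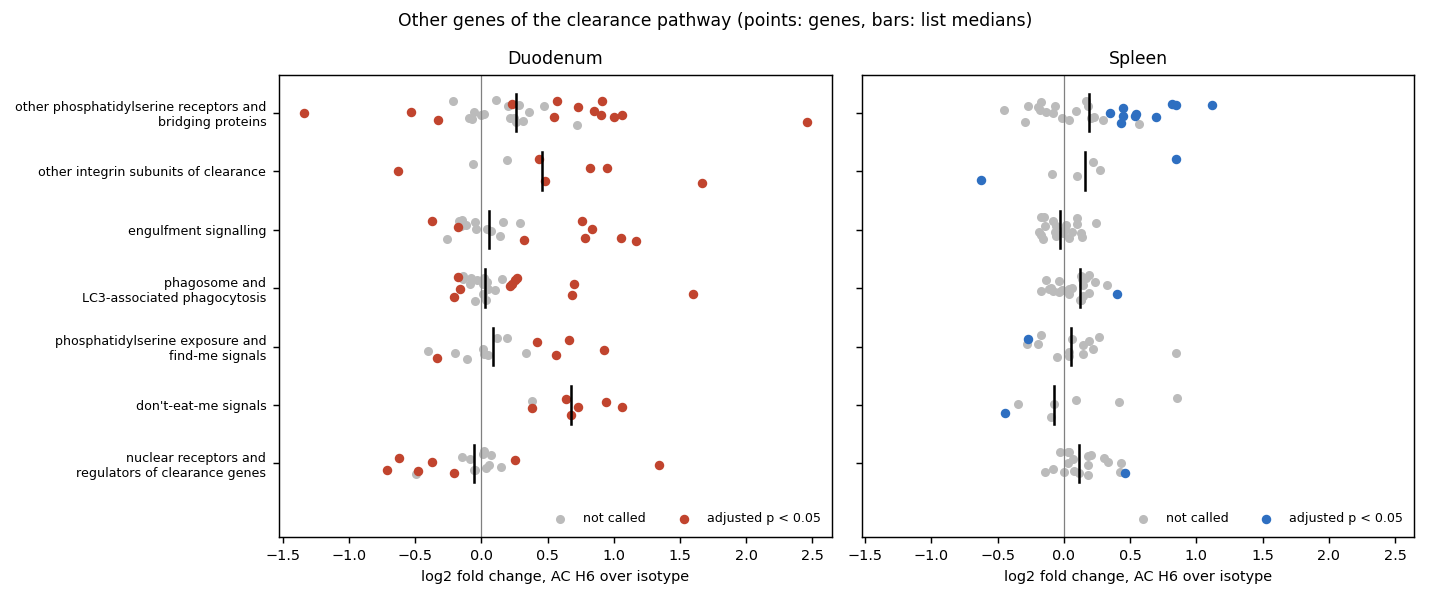
Fold changes (log2, AC H6 over isotype) for the other genes of the clearance pathway (points, coloured where the adjusted p is under 0.05), with each list's median as a bar, duodenum left and spleen right. The list medians in duodenum run between -0.05 and 0.68, and those in spleen between -0.07 and 0.19.

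The genes whose levels ran most like Mfge8 were found by Pearson correlation of log2 CPM, centred on each tissue's mean, over the 12 libraries and 14365 genes tested in both tissues. This describes the pattern only, since the libraries share the AC H6 difference in duodenum that sets most of it. The closest were Marcksl1 at 0.999, Lpcat4 at 0.998, Icam1 at 0.997, Ly6e at 0.995, Nfkb2 and Gpr176 at 0.994, Casp4 at 0.993 and Ifi205 at 0.992. Nfkb2 stood at 199 ± 4.08 CPM in duodenum AC H6 and 32.02 ± 2.17 CPM in duodenum isotype, and at 163 ± 17.9 CPM in spleen AC H6 and 143 ± 7.82 CPM in spleen isotype. Icam1 stood at 51.8 ± 0.568 CPM in duodenum AC H6 and 10.1 ± 0.647 CPM in duodenum isotype, and at 95.6 ± 5.19 CPM in spleen AC H6 and 96.5 ± 4.52 CPM in spleen isotype. Within the set Axl ranked at place 40 with 0.984, Timd4 at 222 with 0.955 and Itgav at 1285 with 0.820. Itgb5 and Itgb3 stood at 0.243 and 0.143. Tyro3 ran opposite, at -0.885, as did Gas6 at -0.646, Pros1 at -0.619 and Mertk at -0.617.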

How the data were processed

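RNA was measured in 12 libraries of 4 groups. Per the labels' protocols, libraries were made with the TruSeq RNA Sample Prep Kit of Illumina, which keeps no strand information; the text names brain as the tissue, unlike the tissue labels. Per the submitters' processing notes, the tools were STAR 2.3, Trimmomatic, bcl2fastq 2.19 and edgeR, and the build was mm10; counter and annotation were not given in the sources used here. As for the values, the authors deposited raw read counts per gene, 1 table per library, with 23329 rows, and per the file headers reads with several matches are kept. No other gene's counts lay within 1% of a member's in every library.

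In R 4.3.3 the counts were filtered with filterByExpr, scaled by trimmed mean of M values and tested with the quasi-likelihood functions of edgeR 4.0.16 (glmQLFit and glmQLFTest). Each tissue, and the 6 isotype libraries, were fitted alone, and the difference between the tissues on all 12. A gene was called at p under 0.05 after Benjamini-Hochberg adjustment across the fit. The standard error is the log2 fold change divided by the square root of F. Lengths and positions are of GENCODE M21 (GRCm38), joined by symbol. The fits were also run on counts simulated from their own estimated spread, and no result here rests on that run.

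The members, the lists and the tests were chosen with earlier results of these data known. Named genes were the 10 members, up to 4 called genes of smallest p per pathway list and tissue, the 8 genes most like Mfge8, and markers by list. No library repeated another within sampling noise (chi-square per degree of freedom 24.6 to 243).

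Alternatives were other size factors, no or a stricter filter on low counts, DESeq2 1.42.0, limma-voom (limma 3.58.1), 1 fit of all 12 libraries, counts without haemoglobin, Rn45s, Lars2 and amylase 2 genes, acinar or erythroid scores, the replicate block, and each library left out. A macrophage score and leaving out duodenum isotype replicate 1 with AC H6 replicate 3 were added after seeing the data. The replicate numbers come from the sample titles. Deviations of same-numbered duodenum and spleen isotype libraries correlated at 0.309, 0.480 and 0.144 across 13170 genes, so the numbers were read as pairs in that comparison only. The p-values given for that comparison come from the fit without pairs, and the pairing entered only through the replicate block as an alternative. Within tissues and under AC H6 at least 1 pair was below 0.1.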

Additional observations from a re-analysis of the deposited data

Results flagged for a closer look

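The treatment effect of AC H6 in duodenum minus that in spleen was called for 5 of the 9 genes other than Mfge8. Each had an interaction term past an adjusted p of 0.05 in the quasi-likelihood test of edgeR over 12 libraries. Of all 16655 genes tested, 10.9% were called positive and 9.13% negative. Timd4 differed by 1.22 on the log2 scale, Axl by 0.78 and Itgav by 0.52, all with the larger value in duodenum. Tyro3 differed by -0.49 and Pros1 by -0.27, with the lower value in duodenum. The calls of Tyro3 and Pros1 were each lost in 9 of 19 alternatives.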

How the results depend on the processing

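In duodenum the calls of Axl, Timd4, Tyro3 and Itgav held under every alternative run except the macrophage score. Counts of members below leave out Mfge8. With that score 1 gene and 0 members were called, and Tyro3 stood at 0.024, Itgav at -0.31 and Itgb3 at -0.74. Without duodenum isotype replicate 1 and AC H6 replicate 3 6 members were called, against 5, and Itgb3 stood at -0.026. Spleen calls depended on the processing. Against 608 genes and 1 member, DESeq2 called 1356 and 2, 1 fit of all 12 libraries 1390 and 2, the replicate block 1 and 0, the erythroid score 210 and 0, and the stricter filter 0 members. Leaving out 1 spleen library gave 14 to 1132 genes and 0 to 1 members: 14, 68 and 104 genes without isotype replicate 1, 2 or 3, and 76, 1132 and 30 without AC H6 replicate 1, 2 or 3. With the erythroid score Timd4 stood at 0.049 and Itgav at 0.025 in spleen. Leaving out 1 library gave spleen ranges of -0.15 to 0.077 for Mertk and -0.10 to 0.031 for Timd4, and -0.18 to 0.037 for the interaction of Gas6. None of these reversed values was called. With the longest transcript as length, Mfge8 in duodenum AC H6 came to 296 CPM per kb. The cause was not tested for any of these.

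With the replicate number as a block, duodenum had 5421 genes and 6 members called. For the interaction the block joined duodenum and spleen libraries of the same treatment and number, a pairing the labels do not state. That fit called 3082 genes and 7 members. In the tissue comparison under isotype, the one the numbers were read to pair, the block gave 13799 genes and all 9 members and changed no call among these. Counts were few for Tyro3 in spleen, at 2.56 to 3.21 CPM, and for Timd4 in duodenum under isotype, at 2.08 to 3.09 CPM, which limits the precision there.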
